A study of Mus musculus with 7 samples.

Results

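Levels of 8 genes that mark type 1 conventional dendritic cells were followed across 7 sorted mouse samples. The genes were taken by name as surface markers and receptors of this cell type, by matching the Entrez identifiers of the count files to mouse symbols, and all 8 were found among 27179 genes. They are Clec9a, Ly75 and Cd36, which bind or take up cargo, Cadm1 and Cd24a, which act in adhesion, Cd8a, a coreceptor chain, Flt3, a growth factor receptor, and Naaa. Naaa encodes an acid amidase of the lysosome and not a surface protein, so the label of surface marker does not hold for it. No measured value entered the choice of the rule, but earlier results of these data were known when the genes were proposed.

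Type 1 conventional dendritic cells (cDC1) take up dead cells and show their antigens to CD8 T cells, a step called cross-presentation. They depend on FLT3 ligand for their development, and in mouse lymphoid organs many of them carry CD8 as an αα homodimer. CLEC9A, also named DNGR-1, recognises actin filaments that dying cells expose. LY75, also named DEC-205, is an endocytic receptor that delivers antigen to processing compartments.

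The samples were CD8 dendritic cells of C57BL/6 mice, isolated by fluorescence-activated sorting and grouped by surface CD103, the integrin chain encoded by Itgae. The CpG CD103 high group held 2 samples from treatment with CpG, an agonist of Toll-like receptor 9, and both were dated 2012. The CD103 low group held 2 untreated samples dated 2013. The CD103 negative group held 3 untreated samples, of which replicates 1 and 2 were dated 2012 and replicate 3 was dated 2013. All groups shared the strain and the CD8 population. The sources used here do not state tissue, age, sex, sort gates, CpG dose or interval, nor whether mice were pooled. Because only CpG-treated cells were sorted as CD103 high, the treatment and the CD103 level cannot be told apart.

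Each library held between 4474211 and 4629181 counts. Itgae followed the sort labels in every library, with 1019 and 992 counts per 1000000 (CPM) in CpG CD103 high, 346 and 375 in CD103 low, and 61.7, 62.7 and 54.3 in CD103 negative cells. All 9 marker genes used to check the cDC1 label, Xcr1, Irf8 and Batf3 among them, were present in all libraries. The list includes the members Clec9a, Cd8a and Cadm1. Cd8a and Itgae, also on it, follow the sort, so these genes are no separate check of the label. The CpG CD103 high libraries stood apart from the others on the first principal component, which took 47.6% of the variance. On the second, with 23.4%, CD103 negative replicates 1 and 2 stood at 24.06 and 24.36. CD103 negative replicate 3 stood at -19.39, beside the CD103 low libraries of the same date at -21.31 and -16.24. The CpG CD103 high libraries stood at 9.15 and -0.64 there.

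Transcripts of other cell types were present at low levels and unevenly. The summed level of 9 T cell markers was 50.1 CPM in CD103 low replicate 2 and between 4.48 and 11 CPM in the other libraries, and Trbc1 was at 0 in 5 of the 7. The sum of 10 plasmacytoid dendritic cell markers was 241 CPM in CD103 negative replicate 3 and between 157 and 195 CPM elsewhere. The sum of 8 erythroid and platelet markers was 31.9 and 35.6 CPM in CpG CD103 high, 19.8 and 8.97 in CD103 low and 3.29 to 4.90 in CD103 negative cells. In CpG CD103 high over CD103 negative cells, 5 of the 6 tested erythroid and platelet markers were higher, and of 4 tested monocyte and neutrophil markers 3 were higher and 1 lower. The macrophage sum of 372 and 470 CPM in CpG CD103 high cells, against 129 to 200 CPM in CD103 negative cells, was mostly Hmox1, while C1qa stood at 1.55 CPM or less there. The 6 NK cell markers summed to 5.10 CPM or less in every library. The 7 B cell markers summed to 475 to 531 CPM and the 10 cDC2 markers to 217 to 323 CPM over all libraries, the highest of both in CD103 negative replicate 3. Ighm carried most of the B cell sum and Clec12a most of the cDC2 sum. In CpG CD103 high over CD103 negative cells, 3 of 4 tested B cell markers and 3 of 7 tested cDC2 markers were lower, and of 7 tested plasmacytoid dendritic cell markers 2 were higher and 3 lower. Ms4a1, a B cell marker, had 8.21 and 9.64 CPM in CpG CD103 high cells, against 69.8, 47.4 and 48.1 CPM in CD103 negative cells. Of 6 tested macrophage markers 1 was higher and 2 lower there, with Vcam1 at 17.1 and 13.4 CPM in CpG CD103 high cells, against 80.4, 61.2 and 77.3 CPM in CD103 negative cells. Of these cells, T cells can carry Cd8a, plasmacytoid dendritic cells Flt3, erythroid cells Cd24a and macrophages and platelets Cd36. The part of such cells in the results below was not tested, and in sorted bulk RNA fewer cells of a type and less RNA per cell cannot be told apart.

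RefSeq promoter windows of build GRCm38.p6 (mm10), from 250 bases before to 50 bases after an annotated start, were given for 6 of the 8 genes. Those of Clec9a and Naaa, which were higher in CpG CD103 high cells, of Cd36, which was lower, and of Cd8a, which passed no test, are printed 5′ to 3′ on the strand of the gene. Capitals mark matches, on either strand, to 6 motifs. The composite of an ETS and an IRF site was read as GGAA followed after any 2 bases by GAAA, and the tandem IRF site has GAAA in both places. The AP-1 site was read as TGANTCA and the RUNX site as TGTGGT. The TATA box was searched as TATAAA, and the box bound by NF-Y as CCAAT. No match overlapped another.
Clec9a promoter, chr6:129408612-129408911, plus strand: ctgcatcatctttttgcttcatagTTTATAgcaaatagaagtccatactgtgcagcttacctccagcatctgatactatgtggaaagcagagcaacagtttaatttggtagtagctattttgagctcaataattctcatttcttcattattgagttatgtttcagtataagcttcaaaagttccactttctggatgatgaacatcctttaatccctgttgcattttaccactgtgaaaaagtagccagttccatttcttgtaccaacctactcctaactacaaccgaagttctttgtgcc
Naaa promoter, chr5:92278132-92278431, minus strand: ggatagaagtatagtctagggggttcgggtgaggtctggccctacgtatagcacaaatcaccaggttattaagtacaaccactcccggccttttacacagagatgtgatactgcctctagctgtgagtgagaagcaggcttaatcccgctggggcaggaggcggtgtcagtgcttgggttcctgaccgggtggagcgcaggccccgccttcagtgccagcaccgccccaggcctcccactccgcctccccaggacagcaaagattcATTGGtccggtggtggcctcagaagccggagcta
Cd36 promoter, chr5:17835847-17836146, minus strand: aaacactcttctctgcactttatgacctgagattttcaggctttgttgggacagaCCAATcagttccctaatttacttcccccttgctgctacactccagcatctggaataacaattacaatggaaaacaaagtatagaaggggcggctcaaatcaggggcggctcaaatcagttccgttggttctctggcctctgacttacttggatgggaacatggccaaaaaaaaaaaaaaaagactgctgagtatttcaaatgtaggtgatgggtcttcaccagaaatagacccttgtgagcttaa
Cd8a promoter, chr6:71373177-71373476, plus strand: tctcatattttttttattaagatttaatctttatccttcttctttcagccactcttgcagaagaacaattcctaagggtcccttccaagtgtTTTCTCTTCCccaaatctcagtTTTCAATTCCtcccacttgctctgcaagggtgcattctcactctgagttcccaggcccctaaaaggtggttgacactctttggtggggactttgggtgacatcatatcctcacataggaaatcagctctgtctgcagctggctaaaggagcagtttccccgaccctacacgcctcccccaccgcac

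Only the Cd8a window, of the 6, held the ETS-IRF letters, in 2 places on the opposite strand, at positions -158 and -136 from the start site. Such letters occurred in 2.72% of all 32851 promoter windows. The tandem IRF letters (3.44% of windows) and the AP-1 letters (7.81%) were in none of the 6. Clec9a held 1 match to TATAAA (13.6% of windows), far upstream on the opposite strand, and Naaa and Cd36 held 1 match each to CCAAT (37.4%). Ly75 held 1 match to TGTGGT (16.8%) and 1 to CCAAT, and Flt3 held none of the 6 motifs. The Cd36 window lies at an internal start of the gene, which has several. These are matches of letters and not evidence of binding.

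All 8 genes were abundant. On the per-length scale (RPKM, the CPM divided by gene length in kilobases), averaged over the 7 libraries, Naaa was the highest at 1654 RPKM and ranked 25 of 10863 tested genes. It was followed by Cd8a at 439, Cd24a at 317, Clec9a at 245, Flt3 at 238, Cadm1 at 175, Cd36 at 154 and Ly75 at 44.7 RPKM. No member had fewer than 862 counts in any library, so counting error was small beside the level of each gene. Among the libraries, Cadm1 varied most, with a ratio of 2.62 between its highest and its lowest CPM, followed by Naaa at 2.15. Cd8a and Flt3 varied least, with ratios of 1.23 and 1.24.

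**Figure D1:**
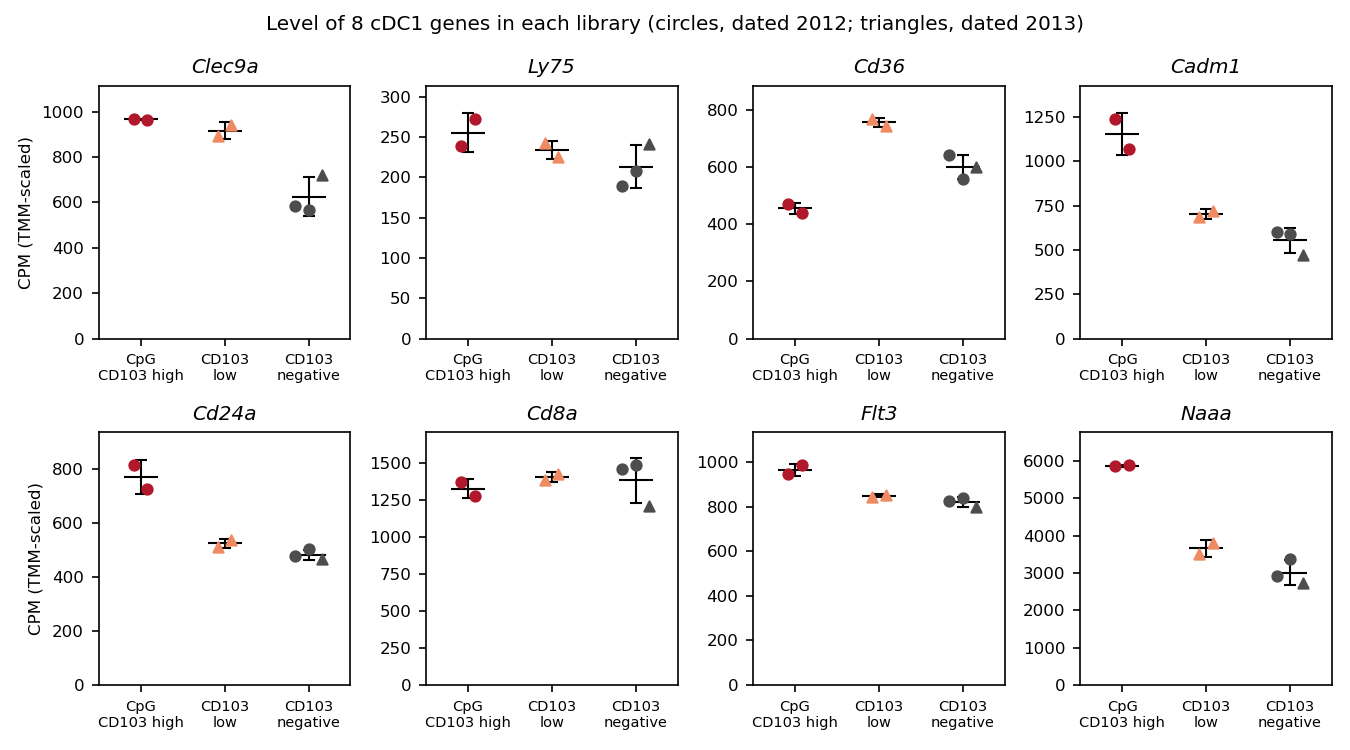
Level of the 8 genes in CPM (y axis, from 0) in each library of the CpG CD103 high, CD103 low and CD103 negative groups (x axis). Points are libraries, circles dated 2012 and triangles dated 2013, and black bars give the mean and SD. Cadm1, Cd24a and Naaa are highest in both CpG CD103 high libraries, Cd36 is lowest there, and Cd8a overlaps between CpG CD103 high and CD103 negative cells.

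CpG CD103 high cells were first set against CD103 negative cells, treated against untreated. Of the 8 genes, 5 were higher in CpG CD103 high cells (Cadm1, Naaa, Clec9a, Cd24a and Ly75), 1 was lower (Cd36), and Flt3 and Cd8a did not pass the test. The test was edgeR's quasi-likelihood fit with terms for group and date, on all tested genes, at a Benjamini-Hochberg adjusted p under 0.05. In the same fit 26.3% of the 10863 tested genes were called, 14.5% as higher and 11.8% as lower. Calls were more frequent among abundant genes. Of the 725 genes with a mean CPM at least that of Ly75, the lowest member on that scale, 42.6% were called, 23.4% as higher and 19.2% as lower. The median log2 fold change was 0.51 over the 8 members and -0.01 over all tested genes. The CPM of the 2 groups did not overlap for 6 of the 8 members, and 44.7% of all tested genes likewise had no overlap. The date term sets CpG CD103 high cells against CD103 negative replicates 1 and 2.

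Among the uptake receptors, Clec9a (Entrez gene 232414, chr6:129408862-129424764 in mm10) had 968 and 964 CPM in CpG CD103 high cells, against 586, 565 and 722 CPM in CD103 negative cells. Both CpG CD103 high libraries lay above all CD103 negative ones, of which replicate 3 was the highest. Its log2 fold change was 0.75 (SE 0.08, adjusted p 0.000207, edgeR). Clec12b, which overlaps Clec9a on the map, had at most 1 count in a library. The call of Clec9a was kept under all 14 alternatives, with log2 fold changes between 0.63 and 0.77.

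Ly75 (Entrez gene 17076, chr2:60292103-60383273) had 239 and 273 CPM in CpG CD103 high cells, against 189, 208 and 242 CPM in CD103 negative cells. The groups overlapped, since CD103 negative replicate 3 exceeded CpG CD103 high replicate 1. Its log2 fold change was 0.37 (SE 0.10, adjusted p 0.0207, edgeR). Dropping the date term ended the call (0.26, adjusted p 0.177), as did leaving out CpG CD103 high replicate 2 (0.25, adjusted p 0.138) or CD103 negative replicate 1 (0.30, adjusted p 0.121).

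Cd36 (Entrez gene 12491, chr5:17781690-17888959) encodes a class B scavenger receptor that binds oxidised lipids, long-chain fatty acids and dead cells. It was the one member called lower, with 471 and 442 CPM in CpG CD103 high cells, against 642, 558 and 601 CPM in CD103 negative cells. The groups did not overlap. Cd36 thus had a log2 fold change of -0.39 (SE 0.09, adjusted p 0.0114, edgeR). The call was lost without CpG CD103 high replicate 2 (-0.36, adjusted p 0.0502) and without CD103 negative replicate 1 (-0.29, adjusted p 0.0799). In this comparison 5 erythroid and platelet markers were called higher and 0 lower. Of 6 tested macrophage markers, 1 was called higher and 2 lower. The part of these cells in the level of Cd36 was not tested.

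Of the adhesion genes, Cadm1 (Entrez gene 54725, chr9:47530170-47862280) showed the largest fold change of the 8. CADM1 (also Necl-2) is an immunoglobulin-like adhesion protein that binds CRTAM on activated T cells. It had 1239 and 1071 CPM in CpG CD103 high cells, against 601, 589 and 473 CPM in CD103 negative cells. Every CpG CD103 high library lay well above every CD103 negative one. The log2 fold change was 0.96 (SE 0.09, adjusted p 0.000118, edgeR) and was called under all 14 alternatives, between 0.85 and 1.06. The overlapping gene Gm10677 had between 7 and 24 counts a library, against 2224 to 5584 for Cadm1.

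Cd24a (Entrez gene 12484, chr10:43579169-43584265) encodes CD24, a small glycoprotein held in the membrane by a lipid anchor. It had 812 and 723 CPM in CpG CD103 high cells, against 476, 501 and 465 CPM in CD103 negative cells. The groups did not overlap, and the CD103 negative libraries lay close together. Cd24a had a log2 fold change of 0.65 (SE 0.09, adjusted p 0.000733, edgeR), with a range of 0.56 to 0.72 and a call in all 14 alternatives. Haemoglobin and other erythroid transcripts were higher in the same libraries, with Hba-a1 at 13.5 and 13.2 CPM in CpG CD103 high cells, against 1.10, 0.431 and 0.851 CPM in CD103 negative cells, and their part in the level of Cd24a was not tested.

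Naaa (Entrez gene 67111, chr5:92257660-92278181) encodes N-acylethanolamine acid amidase, which breaks down palmitoylethanolamide and related lipids. It had 5852 and 5878 CPM in CpG CD103 high cells, against 2915, 3380 and 2732 CPM in CD103 negative cells. The CpG CD103 high libraries were close to each other and far above the rest. Naaa had a log2 fold change of 0.90 (SE 0.09, adjusted p 0.00013, edgeR), called under all 14 alternatives, between 0.79 and 1.01.

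FLT3 is the receptor tyrosine kinase for FLT3 ligand. Flt3 (Entrez gene 14255, chr5:147330741-147400489) had 948 and 986 CPM in CpG CD103 high cells, against 828, 842 and 798 CPM in CD103 negative cells. The groups did not overlap, but the difference was small and did not pass the test (log2 fold change 0.21, 95% interval 0.04 to 0.38, adjusted p 0.0636, edgeR). It passed in 1 of 14 alternatives, limma voom (adjusted p 0.0332). Reads of Gm26597, which overlaps Flt3 on the map and has no row in the files, could not be set apart.

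Cd8a (Entrez gene 12525, chr6:71373427-71379171) had 1370 and 1280.1 CPM in CpG CD103 high cells, against 1459, 1484 and 1207 CPM in CD103 negative cells. Replicate 3 of the CD103 negative group was the lowest library of all, so the groups overlapped. The log2 fold change was -0.15 (95% interval -0.32 to 0.02, adjusted p 0.170, edgeR), and none of the 14 alternatives called it. An increase of more than 0.02 on the log2 scale lies outside this interval. The cells were sorted as CD8 dendritic cells in all groups. Cd8b1, the β chain that T cells add to CD8, had 9.54 and 3.36 CPM in CpG CD103 high, 2.72 and 9.20 in CD103 low and 4.39, 4.96 and 7.66 in CD103 negative cells.

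**Figure D2:**
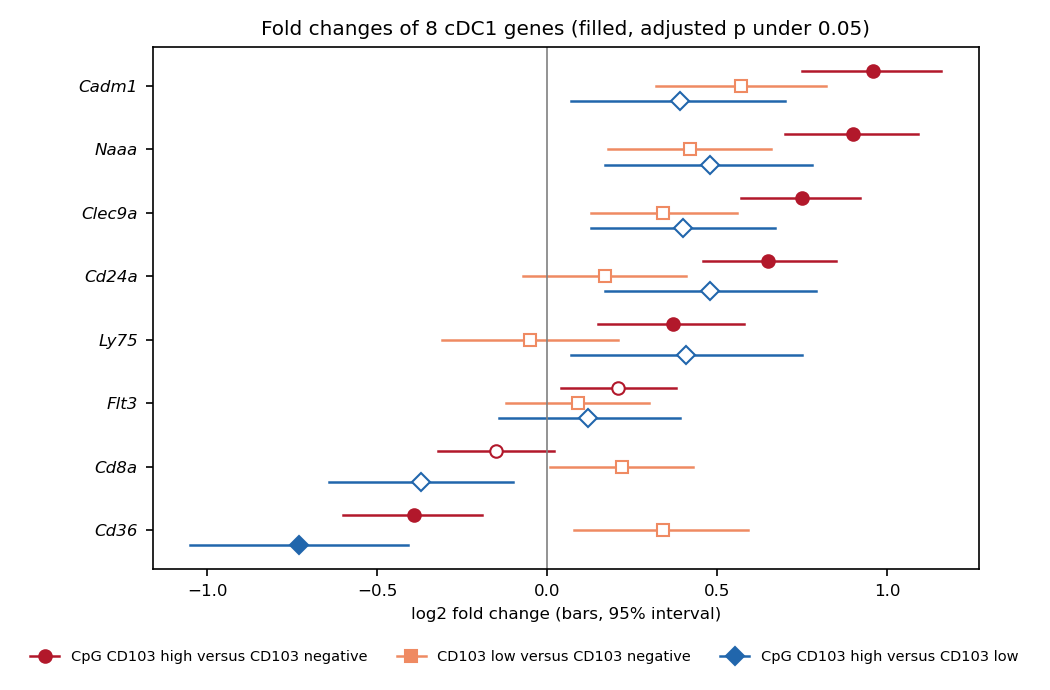
Log2 fold changes (x axis) of the 8 genes (y axis, ordered by the first comparison) in 3 comparisons, with 95% intervals as lines and filled symbols at an adjusted p under 0.05. In CpG CD103 high over CD103 negative cells (circles) 6 genes are called, from Cadm1 at 0.96 to Cd36 at -0.39, while in CD103 low over CD103 negative cells (squares) none is.

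CD103 low and CD103 negative cells, both untreated, differ by label in CD103 alone, apart from the dates. None of the 8 members was called, where 0.138% of all tested genes were, 0.0552% as higher and 0.0829% as lower. Among genes as abundant as Ly75 or more it was 0.828%, with 0.69% higher and 0.138% lower. At an unadjusted p under 0.05, 5 members passed, beside 797 of the 10863 genes. The DESeq2 fit called 2 members, beside 45 of all genes, and gave no adjusted p to 22738 genes. The median log2 fold change was 0.28 over the members and 0.01 over all tested genes, and the 2 groups did not overlap for 6 of the 8 members, beside 28.3% of all tested genes. With the date term the control is CD103 negative replicate 3 alone, so these values rest on 1 library of that group. That library also held the most plasmacytoid dendritic cell transcripts. Of 4 tested monocyte and neutrophil markers, 2 were lower in CD103 low cells, and the 8 markers summed to 37.0 and 30.1 CPM in CD103 low cells, against 120.5 CPM in that library. Their part in these values was not tested.

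Cadm1 had the lowest p-value of the 8, with 684 and 721 CPM in CD103 low cells, against 473 CPM in the CD103 negative library of the same date. Its log2 fold change was 0.57 (SE 0.11, adjusted p 0.101, edgeR), and it was called by DESeq2 (adjusted p 0.00404) and with the 2013 libraries alone (0.56, adjusted p 0.00351). Naaa had 3502 and 3814 CPM in CD103 low cells, against 2732 CPM in that control. Its log2 fold change of 0.42 (SE 0.11, adjusted p 0.241, edgeR) was likewise called by DESeq2 (adjusted p 0.0481) and with the 2013 libraries alone (0.41, adjusted p 0.0140). Both values depended on the control. With no date term they were 0.34 for Cadm1 and 0.28 for Naaa, and without CD103 negative replicate 3 they were 0.21 (adjusted p 0.171) for Cadm1 and 0.19 (adjusted p 0.203) for Naaa.

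Clec9a had 891 and 942 CPM in CD103 low cells, against 722 CPM in the CD103 negative library of the same date and 586 and 565 CPM in those of the earlier date. The log2 fold change was 0.34 (SE 0.10, adjusted p 0.313, edgeR), and 0.64 (adjusted p 0.00195) when CD103 negative replicate 3 was dropped together with the date. The choice of control thus moves this value by more than its error.

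Cd36 had 769.9 and 746 CPM in CD103 low cells, against 601 CPM in the control of the same date, and all CD103 low values exceeded all CD103 negative ones. Its log2 fold change was 0.34 (SE 0.11, adjusted p 0.480, edgeR), and no alternative called it. Cd24a (0.17, adjusted p 0.803), Cd8a (0.22, adjusted p 0.641), Flt3 (0.09, adjusted p 0.889) and Ly75 (-0.05, adjusted p 0.965) were not called by edgeR or under any alternative. CD103 low replicate 2, the library with T cell transcripts, had 1428 CPM of Cd8a, against 1383 CPM in CD103 low replicate 1.

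CpG CD103 high and CD103 low cells were compared across the dates through the CD103 negative libraries. This comparison also tests whether the effects over CD103 negative cells differ. Of the 8 members 1 was called, Cd36, as lower in CpG CD103 high cells, where 6.22% of all tested genes were called, 3.44% as higher and 2.78% as lower. Among genes as abundant as Ly75 or more, 15.6% were called, 5.79% as higher and 9.79% as lower. The groups did not overlap for 7 of the 8 members, beside 58.6% of all tested genes. Cd36 had 471 and 442 CPM in CpG CD103 high cells, against 769.9 and 746 CPM in CD103 low cells. Between them the log2 fold change was -0.73 (SE 0.15, adjusted p 0.0197, edgeR). Cd36 was thus below CD103 negative cells in the CpG CD103 high group and above them, without a call, in the CD103 low group. The call was lost without CD103 negative replicate 1 (-0.63, adjusted p 0.0561), CD103 low replicate 1 (-0.71, adjusted p 0.100) or CD103 low replicate 2 (-0.76, adjusted p 0.0873).

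The other members were not called in this comparison, although 7 of 8 had an unadjusted p under 0.05, beside 2553 of 10863 genes. Naaa (0.48, adjusted p 0.0681), Cd24a (0.48, adjusted p 0.0700), Clec9a (0.40, adjusted p 0.0805) and Cadm1 (0.39, adjusted p 0.134) had positive log2 fold changes in edgeR's fit. Ly75 (0.41, adjusted p 0.134) and Flt3 (0.12, adjusted p 0.586) also had positive values, and Cd8a a negative one (-0.37, adjusted p 0.0969). Naaa crossed the threshold in 6 of 13 alternatives, Cd24a in 3, Cadm1 in 2 and Clec9a in 1. With no date term, Naaa (0.68, adjusted p 0.00719), Cadm1 (0.72, adjusted p 0.0133) and Cd24a (0.55, adjusted p 0.0120) were called, while Clec9a was 0.08 (adjusted p 0.778), Ly75 0.13 (adjusted p 0.621) and Cd8a -0.09 (adjusted p 0.719). Without CD103 negative replicate 3, Clec9a was 0.10, Ly75 0.15 and Cd8a -0.07.

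The order of the group means was the same for Cadm1, Naaa, Cd24a, Clec9a, Flt3 and Ly75, with CpG CD103 high first, CD103 low next and CD103 negative last. These means pool the dates. For Ly75 the same-date CD103 negative library, at 242 CPM, was not below the CD103 low ones, at 242 and 226 CPM. Cadm1 averaged 1155 ± 119 CPM in CpG CD103 high, 702 ± 26.0 in CD103 low and 554.5 ± 70.5 in CD103 negative cells (SD, n = 2, 2 and 3). Naaa averaged 5865 ± 18.1 CPM in CpG CD103 high, 3658 ± 220.5 in CD103 low and 3009 ± 334.2 in CD103 negative cells. Cd24a averaged 767 ± 62.6 CPM in CpG CD103 high, 524 ± 17.3 in CD103 low and 481 ± 18.6 in CD103 negative cells, and Clec9a averaged 966 ± 2.69 CPM in CpG CD103 high, 917 ± 36.0 in CD103 low and 625 ± 85.2 in CD103 negative cells. In these orders no 2 neighbouring groups were called apart, while the first and last groups were for Cadm1, Naaa, Cd24a, Clec9a and Ly75. Cd36 had its highest mean in CD103 low and its lowest in CpG CD103 high cells, at 456 ± 20.5 CPM in CpG CD103 high, 758 ± 17.0 in CD103 low and 600.1 ± 42.2 in CD103 negative cells, where CpG CD103 high cells were called lower than either other group and CD103 low and CD103 negative cells were not called apart.

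The CD103 negative libraries themselves differed between the dates in some members. Over the mean of replicates 1 and 2, replicate 3 stood higher by 0.33 on the log2 scale in Clec9a and by 0.29 in Ly75. It stood lower in Cadm1 (-0.33), Cd8a (-0.29) and Naaa (-0.20), while Cd36 (0.00), Flt3 (-0.06) and Cd24a (-0.07) moved little. No source used here says what was done on these dates, and these differences are given as values without a test.

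**Figure D3:**
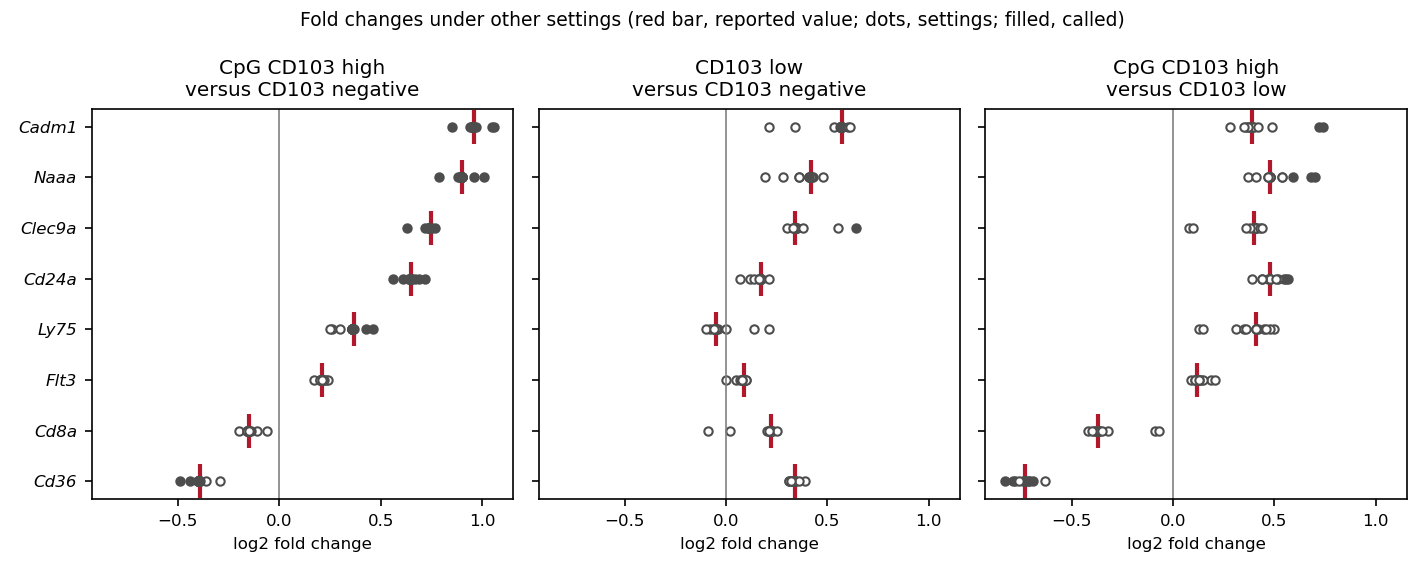
Log2 fold change (x axis) of each gene (y axis) in 3 comparisons under the reported fit (red bars) and under 14, 14 and 13 other settings (dots, filled where called). The values of Cadm1, Naaa, Clec9a and Cd24a stay called in CpG CD103 high over CD103 negative cells, while calls in the other comparisons change with the setting.

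For each called member, the tested genes with the most similar course over the 7 libraries were sought among 7101 named genes. Because the libraries fall into 3 groups, the coefficients (Pearson's r of log2 CPM) describe likeness only. Cadm1 was closest to Serpinb6b, a clade B serpin (0.994), and Lrp10 (0.991). Serpinb6b averaged 577 CPM in CpG CD103 high, 358 in CD103 low and 272 in CD103 negative cells. Naaa was closest to Grn, which encodes progranulin, a protein of the lysosome (0.994), and to Lpcat2 (0.991). Cd24a was closest to Tulp3 (0.998) and Ubash3b (0.996), and Clec9a to Itga3 (0.995) and Evi2b (0.991). Ly75 was closest to Ppp1r12b (0.989) and Sfi1 (0.988), and Cd36 to Tbrg1 (0.989) and Syngr2 (0.988).

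Companion genes of the 8 members were taken from 10 lists, read against the 14.5% of tested genes called higher and the 11.8% called lower in CpG CD103 high over CD103 negative cells. Among genes as abundant as Ly75 or more these shares were 23.4% and 19.2%, and the lists hold genes above and below that level. Of 12 other genes listed as surface genes of cDC1, all of them tested, 7 were higher and 1 lower (median log2 fold change 0.42, against -0.01 over all genes). Itgae, used for the sort, is among the 7. The list also holds receptors of endosomes, Tlr3 among them, so the label of surface gene does not hold for all of it. Tlr3, a receptor for double-stranded RNA in endosomes, had 1069 and 1078 CPM in CpG CD103 high cells, against 509, 553 and 532 CPM in CD103 negative cells (1.01, SE 0.08, adjusted p 4.61e-05, edgeR). Cd207, the lectin langerin, was the one lower gene, with 4.44 and 3.81 CPM in CpG CD103 high cells, against 65.9, 61.0 and 59.4 CPM in CD103 negative cells (-3.93, SE 0.21, adjusted p 4.73e-06). In CD103 low cells Cd207 stood at 98.3 and 131 CPM, above every CD103 negative library without a call (0.95, adjusted p 0.0920).

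Near Flt3, 9 of 22 genes of FLT3 signalling and growth factor receptors were higher and 1 lower (median 0.30). Csf2ra, the α chain of the GM-CSF receptor, had 483 and 596 CPM in CpG CD103 high cells, against 269, 262 and 410.1 CPM in CD103 negative cells (1.02, SE 0.11, adjusted p 0.000228, edgeR). Stat3, a transcription factor downstream of FLT3, rose by 0.80 (SE 0.09, adjusted p 0.000263). Socs2, an inhibitor of cytokine receptor signalling, was lower (log2 fold change -1.69, SE 0.22, adjusted p 0.000569). All 3 were also called over CD103 low cells (Csf2ra 0.77, Stat3 0.77 and Socs2 -1.30), Csf2ra in 6 of 13 alternatives, Stat3 in 11 and Socs2 in 4, where the list had 6 higher and 1 lower, beside 3.44% of all tested genes called higher and 2.78% lower. In CD103 low over CD103 negative cells, Itgae was the only gene of the 10 lists, as reported here, that edgeR called.

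Near Clec9a and Ly75, 8 of 21 C-type lectin receptor genes were abundant enough to be tested, with 2 higher and 1 lower (median -0.08). Clec1a (1.19, SE 0.16, adjusted p 0.000767) and Clec2d (0.99, SE 0.16, adjusted p 0.00188) were the higher ones in edgeR's fit, and neither was called without the date term (0.82, adjusted p 0.0641 for Clec1a, and 0.43, adjusted p 0.451 for Clec2d). CD103 negative replicate 3, at 113 CPM of Clec2d, exceeded both CpG CD103 high libraries at 81.6 and 105 CPM. Cd209a, a lectin of other dendritic cells, had 0 counts in both CpG CD103 high libraries, where 3 counts would be 0.648 and 0.670 CPM of the unscaled totals, against 4.17, 0.862 and 21.3 CPM in CD103 negative cells. Its call was lost without the date term, and when either CpG CD103 high replicate or CD103 negative replicate 1 was left out. Among 11 tested genes of CLEC9A signalling and dead-cell uptake, 2 were higher and 1 lower (median 0.08). Syk, the kinase that CLEC9A engages, stood at -0.04 (SE 0.09, adjusted p 0.784). Cd300lf, a receptor for phospholipids of dying cells, rose by 1.54 (SE 0.28, adjusted p 0.00333) at 10.9 and 10.1 CPM in CpG CD103 high cells, against 3.29, 3.88 and 3.41 CPM in CD103 negative cells, and was not called by DESeq2 (adjusted p 0.0744). Mfge8, a bridge between dead cells and integrins, was lower (log2 fold change -1.81, SE 0.34, adjusted p 0.00406). Card9 was called higher (0.62, adjusted p 0.0267) but in only 5 of 14 alternatives, with 0.35 (adjusted p 0.361) without the date term and 0.35 (adjusted p 0.196) without CpG CD103 high replicate 2. Its 27.5 and 38.3 CPM in CpG CD103 high cells overlapped the 34.7 CPM of CD103 negative replicate 3.

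Near Cd36, scavenger receptors were mixed, with 2 of 8 tested genes higher and 1 lower (median 0.32). Cd68, a macrophage and dendritic cell glycoprotein of late endosomes, stood at 204 CPM in both CpG CD103 high libraries, against 277, 253 and 278 CPM in CD103 negative cells (-0.38, SE 0.08, adjusted p 0.00957, edgeR). Without CD103 negative replicate 1 it was not called (-0.31, adjusted p 0.0631). It was lower over CD103 low cells too (-0.54, adjusted p 0.0431, edgeR), as Cd36 was. Cd68 kept that call in 6 of 13 alternatives and Cd36 in 10. Scarb1, the receptor for high-density lipoprotein and a relative of CD36, rose by 0.40 (SE 0.09, adjusted p 0.0122), a call lost without CpG CD103 high replicate 1 (0.33, adjusted p 0.0596) or CD103 negative replicate 2 (0.32, adjusted p 0.0806). Scarf1 was called higher (2.78, adjusted p 0.00608) on 20 and 15 counts in CpG CD103 high cells, against 3, 2 and 15 counts in CD103 negative cells, and was not called without the date term (1.42, adjusted p 0.184). Of 10 tested genes of fatty acid handling, 2 were higher and 0 lower (median 0.04). These were the fatty acid transporter gene Slc27a1 (1.11, SE 0.17, adjusted p 0.0015) and Cpt1a, which brings fatty acids into mitochondria (0.60, SE 0.10, adjusted p 0.00262).

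Near the adhesion genes, 1 of 6 tested genes of the CADM and nectin family and its ligands was higher and 1 lower (median 0.16). Pvr, a nectin-like receptor (-0.71, adjusted p 0.0235), and Tigit, an inhibitory receptor for PVR (1.4, adjusted p 0.0386), were called by edgeR but not by DESeq2 (adjusted p 0.120 for Pvr and 0.379 for Tigit). Pvr was also lost without CpG CD103 high replicate 2 (-0.56, adjusted p 0.124) or CD103 negative replicate 1 (-0.45, adjusted p 0.160). Tigit was called in 6 of 14 alternatives and was lost on leaving out any library other than CD103 negative replicate 3, with adjusted p between 0.0675 and 0.172. Crtam, the partner of CADM1, was not abundant enough to be tested. Among 3 tested partners of CD24, 1 was higher and 1 lower (median -0.27). Siglecg, a sialic acid receptor, rose by 0.94 (SE 0.19, adjusted p 0.0065) and Selplg, a mucin-like adhesion glycoprotein, was lower (log2 fold change -0.27, SE 0.09, adjusted p 0.0432). Siglecg was not called without the date term (0.69, adjusted p 0.0803), and Selplg was called in 3 of 14 alternatives.

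Near Naaa, 3 of 8 tested genes of N-acylethanolamine metabolism were higher and 0 lower (median 0.21). Napepld, the phospholipase that releases these lipids, rose by 1.27 (SE 0.25, adjusted p 0.00544, edgeR), at 11.8 and 11.9 CPM in CpG CD103 high cells, against 4.17, 5.60 and 4.68 CPM in CD103 negative cells, but was not called by DESeq2 (adjusted p 0.103). Plaat3, an acyltransferase, rose by 0.94 (SE 0.15, adjusted p 0.00162). Asah1, the acid ceramidase related to NAAA, rose by 0.37 (SE 0.09, adjusted p 0.0138), a call lost without CpG CD103 high replicate 1 (0.27, adjusted p 0.069) and without CD103 negative replicate 2 (0.35, adjusted p 0.0712). Of the coreceptor genes, Cd4 had 8.43 and 9.19 CPM in CpG CD103 high cells, against 15.6, 19.0 and 22.6 CPM in CD103 negative cells (-0.97, SE 0.19, adjusted p 0.00484, edgeR). Lck and Lat, listed with them though not coreceptors, were not abundant enough to be tested.

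**Figure D4:**
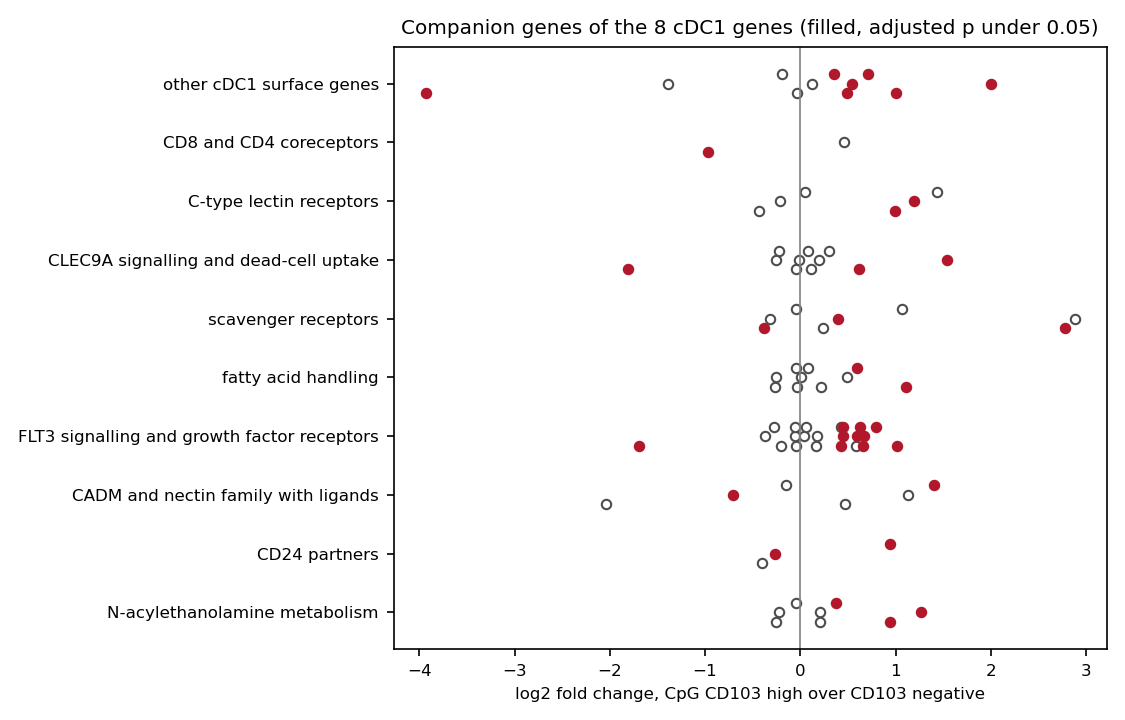
Log2 fold change in CpG CD103 high over CD103 negative cells (x axis) of the tested genes of 10 companion lists (y axis), with filled points at an adjusted p under 0.05. Itgae and genes with 0 counts in every library of a group are not drawn. Called genes of FLT3 signalling and growth factor receptors lie mostly right of 0, while Cd207 at -3.93 stands far to the left among the other cDC1 surface genes.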

How the data were processed

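RNA was measured in 7 sorted samples, 1 library each. Each deposited file gives whole-number counts of reads for every gene and a gene length, per the file headers. CASAVA, Subread 1.4.6, featureCounts and build mm10 are named without roles, per the submitters' processing notes. Strand handling, multi-mapping reads and the annotation release are not described in the sources used. A table of the whole series with 7 columns that match no sample label was not used. Of 27179 Entrez identifiers, 93.0% matched a symbol of the RefSeq table for GRCm38.p6, and the rest held 0.533% of counts.

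The fit used R 4.3.3 with edgeR 4.0.16. The filter filterByExpr left 10863 genes, libraries were scaled by TMM, and a quasi-likelihood model with group and date was fitted to all 7 libraries on 3 residual degrees of freedom. The SE of a log2 fold change is its size over the square root of F. CPM are counts per 1000000 on the TMM-scaled library size, and RPKM also divide by the length column. DESeq2 1.42.0, limma 3.58.1 (voom), another scaling, no filter, no date term, a replicate block, single dates and leaving out each library were the alternatives. The fit was tested on simulated data. Replicates differed beyond sampling noise (chi-square per degree of freedom 2.99 to 14.26), so none was counted as a repeat deposit. The series text calls the samples biological replicates and does not say that they came from separate animals, so p-values measure the spread between these samples. One gene of these lists is not reported here. The members and lists were chosen with earlier results of these data known. The text names all members, up to 3 called genes of each list by adjusted p, and 2 genes of similar course for each called member. Syk, Cd8b1, Crtam, Lck, Lat, Hba-a1, Hmox1, C1qa, Trbc1, Ms4a1, Ighm, Clec12a, Vcam1, Clec12b, Gm10677, Gm26597, Xcr1, Irf8 and Batf3 were named outside this rule.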

Additional observations from a re-analysis of the deposited data

Results flagged for a closer look

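Cd36 is the 1 member whose change over CD103 negative cells was called different between the groups, a call kept in 10 of 13 alternatives. Its log2 fold change was -0.39 in CpG CD103 high and 0.34 in CD103 low cells, a difference of -0.73 (adjusted p 0.0197 in edgeR's fit). Itgae also differed by 1.28, as its use in the sort sets.

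Among the companion genes, the same test called a negative difference for Cd207 (-4.88, adjusted p 4.26e-05), Cd4 (-1.41, adjusted p 0.0172), Socs2 (-1.30, adjusted p 0.0477) and Cd68 (-0.54, adjusted p 0.0431). It called a positive difference for Tlr3 (0.65), Csf2ra (0.77), Stat3 (0.77), Clec1a (1.04), Slc27a1 (1.08), Clec2d (1.34) and Siglecg (1.35), with an adjusted p between 0.0146 and 0.0484 in edgeR's fit. With no date term the differences of Clec1a (0.13), Clec2d (0.07) and Csf2ra (0.14) were near 0 and not called, and likewise without CD103 negative replicate 3 (0.15 for Clec1a, 0.09 for Clec2d and 0.16 for Csf2ra). Clec2d had 81.6 and 105 CPM in CpG CD103 high cells, against 77.7 and 100.2 CPM in CD103 low cells. Scarf1 differed by 4.55 (adjusted p 0.0164) on 20 and 15 counts in CpG CD103 high cells and 3 and 5 counts in CD103 low cells. Of these differences, Cd207 and Itgae alone were called under all 13 alternatives, and Slc27a1 under 3 of them.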

How the results depend on the processing

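Of 328 member values under the alternatives, 297 kept their direction and side of the threshold, 8 lost a call, 18 gained one and 5 changed direction. The changes of direction were all in CD103 low over CD103 negative cells and none was called. They were Ly75 without the date term (0.14), without CD103 low replicate 2 (0.00) and without CD103 negative replicate 3 (0.21), and, also without that library, Cd8a (-0.09) and Flt3 (0.00). When 1 library was left out, the range was -0.10 to 0.21 for Ly75, -0.09 to 0.25 for Cd8a and 0.00 to 0.10 for Flt3. The cause was not tested.

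In CpG CD103 high over CD103 negative cells, 6 members were called. Leaving out 1 library gave 4 to 6, with 4 without CpG CD103 high replicate 2 or CD103 negative replicate 1, and all genes called, 2860, became 1738 to 2861. CpG CD103 high replicate 2 left out gave 1849, and the second CD103 negative replicate left out gave 1837. All genes called came to 1589 without the date term and 1391 with DESeq2. In CD103 low over CD103 negative cells, 0 members were called, but 2 with DESeq2 and 2 with the 2013 libraries alone, and 0 to 1 when 1 library was left out. All genes called, 15, became 1 with no filter, 45 with DESeq2, 187 with the 2013 libraries alone and 1 to 1035 when 1 library was left out, with 1035 without CD103 negative replicate 3, 27 without CpG CD103 high replicate 1, 4 without CD103 low replicate 1 and 1 without CD103 low replicate 2. In CpG CD103 high over CD103 low cells, 1 member was called. Without the date term 4 members were called, beside 870 of all genes, and with limma voom 3, beside 672 of all genes. DESeq2 and the replicate block each called 2 members. Leaving out 1 library of the CD103 negative group gave 0 to 4 members. There were 4 without CD103 negative replicate 3, 2 without CpG CD103 high replicate 2 or CD103 negative replicate 2, and 0 when CD103 negative replicate 1 or any CD103 low library was dropped. All genes called, 676, became 263 with no filter, 377 with DESeq2 and 115 to 1668 when 1 library was left out, with 1668 without CD103 negative replicate 3, 284 when replicate 1 of that group was dropped, 115 without CD103 low replicate 1 and 166 without CD103 low replicate 2.

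The replicate numbers do not pair the samples by any label. Deviations of same-numbered libraries from their group means had correlations of -0.085 to 0.206. In groups of 2 libraries such deviations mirror each other, and the CD103 negative mean spans both dates. These values therefore cannot decide whether the samples were paired. With the replicate block the calls over all genes were 3013, 10 and 853 in the 3 comparisons as listed above, and Naaa was called in CpG CD103 high over CD103 low cells (0.54, adjusted p 0.0285). The fit without CD103 negative replicate 3 also drops the date term, and DESeq2 gave no adjusted p to 22738 genes in the CD103 low comparison. The 2013 libraries are 2 against 1, so the lone control is assumed to vary like the others.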
